A study of Mus musculus with 6 samples.

Results

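The Notch pathway genes examined in oviductal smooth muscle cells were the receptors Notch1, Notch2, Notch3 and Notch4, the ligands Jag1, Dll1 and Dll4, and the target genes Hes1, Hey1 and Heyl. Chromatin accessibility at these 10 loci was read from ATAC-Seq, an assay in which the Tn5 transposase inserts sequencing adapters mainly into open DNA. A member region was any accessible region that overlapped the body of one of the 10 genes or the 20 kb on either side of it. Of 66679 regions in the whole data set, 56 met this rule. The rule used position, among regions called in at least 1 of the conservative lists described below.

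The cells were primary smooth muscle cells from the oviducts of 8- to 12-week-old mice on day 2 of pregnancy, after mating with a stud male. There were 6 libraries, 3 labelled WT and 3 labelled Pbrm1 KO, the latter called Pbrm1 cKO here. In the study's methods the mutant females carry Pbrm1 fl/fl alleles deleted by a Cre placed in the progesterone receptor gene, and the controls are Pbrm1 fl/fl littermates without Cre, so both groups share the floxed allele. Deletion by this Cre is limited to cells that express or once expressed the progesterone receptor, and to their descendants. Pbrm1 encodes a subunit of PBAF, a SWI/SNF complex that remodels nucleosomes. Digested oviducts were passed through a filter, and the cells were plated for several hours before the assay, with no sort for a marker. The study calls the libraries of a genotype biological replicates, and p-values measure the spread between these samples.

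Notch signaling passes between touching cells. A Delta or Jagged ligand on 1 cell binds a Notch receptor on its neighbor, the receptor is cleaved, and its intracellular domain enters the nucleus, where it joins the DNA-binding protein RBPJ to turn on Hes and Hey genes, which encode repressors. In vascular smooth muscle the pathway, with NOTCH3 and JAG1 as major receptor and ligand, is known for its part in the differentiated contractile state, and Dll4 and Notch4 are known chiefly from endothelium.

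Sequence from the regions on which the results turn is shown in lower case from 5′ to 3′ on the strand of the gene, from the GRCm38 genome of RefSeq. Capitals mark the letters GTGGGAA or CGTGGGAA, a core bound by RBPJ, CACGTG or CACGAG, the E-box and N-box letters bound by HES and HEY proteins, and TGANTCA, the AP-1 motif, on either strand. CGTGGGAA contains GTGGGAA, so the shorter motif is counted wherever the longer one is. The first pair comes from Notch2 and holds the upstream region with the largest deficit in Pbrm1 cKO ranks among the 56 (chr3:97998563-97998862, plus strand) and an intronic region listed in Pbrm1 cKO alone (chr3:98067343-98067642, plus strand).
Notch2 upstream: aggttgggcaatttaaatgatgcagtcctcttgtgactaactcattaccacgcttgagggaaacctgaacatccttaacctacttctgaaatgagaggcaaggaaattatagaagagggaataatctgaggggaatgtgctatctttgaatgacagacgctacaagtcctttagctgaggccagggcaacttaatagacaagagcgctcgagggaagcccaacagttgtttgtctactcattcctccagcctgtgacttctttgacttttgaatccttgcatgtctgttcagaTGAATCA
Notch2 intron: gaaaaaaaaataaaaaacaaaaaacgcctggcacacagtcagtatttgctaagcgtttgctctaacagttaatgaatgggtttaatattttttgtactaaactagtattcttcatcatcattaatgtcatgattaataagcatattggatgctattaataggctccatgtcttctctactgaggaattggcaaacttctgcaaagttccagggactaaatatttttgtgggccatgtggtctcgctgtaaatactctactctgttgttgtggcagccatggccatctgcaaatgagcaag

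The second set comes from starts. The Dll4 start was listed in WT alone (chr2:119325544-119325783, plus strand), the Notch1 stretch lies just inside a second start of that gene that was also listed in WT alone (chr2:26516342-26516541, minus strand), and the Notch4 stretch lies in the best-ranked of the 56 regions (chr17:34586817-34587116, plus strand).
Dll4 start: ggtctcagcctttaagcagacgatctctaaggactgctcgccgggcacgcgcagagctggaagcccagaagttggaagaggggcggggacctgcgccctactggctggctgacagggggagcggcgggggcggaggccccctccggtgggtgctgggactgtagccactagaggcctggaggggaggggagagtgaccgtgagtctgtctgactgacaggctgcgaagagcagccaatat
Notch1 second start: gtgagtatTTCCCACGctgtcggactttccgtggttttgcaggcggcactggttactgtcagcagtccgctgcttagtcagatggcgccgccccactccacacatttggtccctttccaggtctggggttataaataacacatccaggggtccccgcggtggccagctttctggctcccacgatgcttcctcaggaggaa
Notch4 late region: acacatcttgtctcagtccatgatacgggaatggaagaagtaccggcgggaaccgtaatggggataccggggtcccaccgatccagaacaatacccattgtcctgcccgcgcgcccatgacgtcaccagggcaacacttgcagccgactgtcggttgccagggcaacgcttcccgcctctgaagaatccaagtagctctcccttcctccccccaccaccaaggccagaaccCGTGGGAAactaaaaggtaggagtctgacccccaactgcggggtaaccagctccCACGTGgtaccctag

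The last stretch shows the start of the target gene Hes1, which holds both the RBPJ and the HES letters. It ends just before the coding transcript begins (chr16:30065100-30065339, plus strand).
Hes1 start: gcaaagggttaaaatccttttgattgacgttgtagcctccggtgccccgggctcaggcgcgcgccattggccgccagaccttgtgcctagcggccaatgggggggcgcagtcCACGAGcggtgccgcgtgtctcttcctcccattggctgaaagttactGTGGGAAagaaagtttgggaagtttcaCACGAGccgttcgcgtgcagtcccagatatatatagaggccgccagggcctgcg

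Each genotype had 1 conservative list of peaks that passed an irreproducible discovery rate of 0.05, with 56436 entries in WT and 58935 in Pbrm1 cKO, and both lists were merged into the 66679 regions. Each library also had a relaxed list of 298563 to 300000 entries called at a p of 0.01. The lists were capped at 300000 entries and ended at unequal strengths. The lowest −log10 p was 2.66, 3.00 and 2.22 in WT libraries 1 to 3 and 3.25, 3.11 and 2.00 in Pbrm1 cKO libraries 1 to 3. Within each library, every region was ranked by the best −log10 p of the relaxed entries over it, so that rank 1 is the strongest region and a region with no entry takes the last rank, 66679. The depth behind a value was given by the tags counted over its peak summit, which the fold and the p of the peak caller determine together. A summit over one of the 56 regions held a median of 34, 31 and 21 tags in WT libraries 1 to 3. In Pbrm1 cKO libraries 1 to 3 it held 40, 31.5 and 33. WT library 3 was thus the shallowest, and it lacked an entry at 3 of the 56 regions, against 1 each in WT libraries 1 and 2 and 0 in the Pbrm1 cKO libraries. A region without an entry lay below the threshold of that list and was not shown to be closed.

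Most accessible regions of the Notch loci were common to both genotypes. Of the 56 regions, 41 were in both conservative lists, 8 in the WT list alone and 7 in the Pbrm1 cKO list alone. Promoter regions, within 1 kb of an annotated transcription start, numbered 17, and 39 were distal. Of the 17, 8 lay within 1 kb of the RefSeq start of a member, 2 at another start of a member and 7 at starts of other genes in the windows. Among the 17 promoter regions, 76.5% were shared, 23.5% WT only and 0 were Pbrm1 cKO only, against 81.3%, 9.61% and 9.06% of all 21555 promoter regions. With promoters taken as 3 kb, 19 of 24 were shared, 4 were WT only and 1 was Pbrm1 cKO only. The 4 promoter regions listed in WT alone were the second start of Notch1, both regions at the start of Dll4, and the start of Pbx2, a neighbor of Notch4. Among the 39 distal regions, 71.8% were shared, 10.3% WT only and 17.9% Pbrm1 cKO only, against 63.4%, 15.1% and 21.4% of all 45124 distal regions. Each genotype had 1 list, so these shares have no replicate error and were not tested. At 6 of the 8 regions of the WT list alone, and at 5 of the 7 of the Pbrm1 cKO list alone, all 6 libraries had a relaxed entry.

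**Figure D1:**
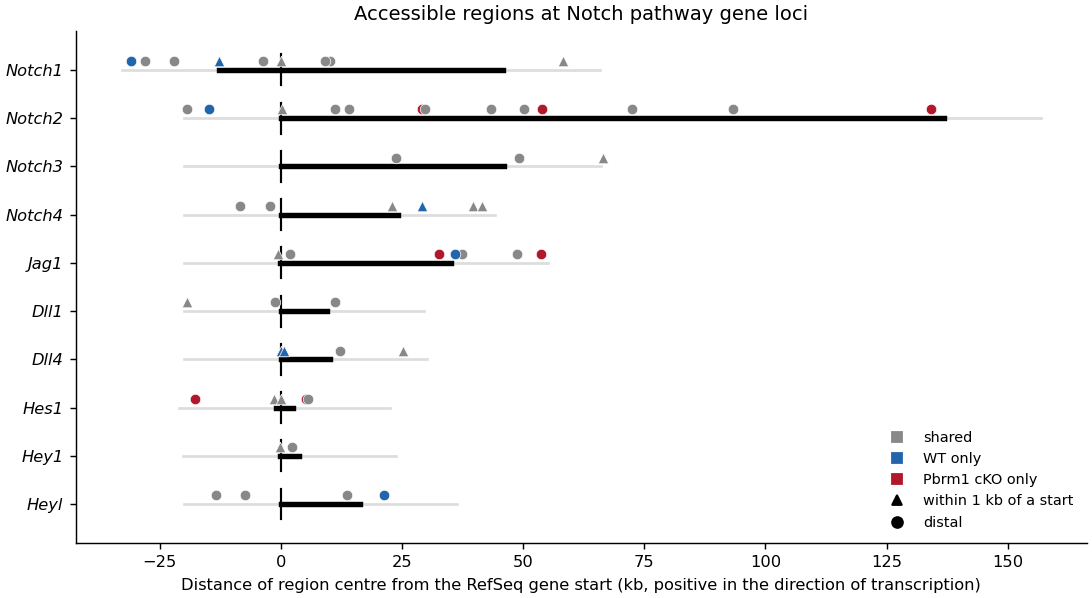
Position of the 56 regions at the 10 loci. The x axis gives the distance of each region's centre from the RefSeq start of the gene in kb, positive along transcription; black bars are gene bodies, grey lines the windows with 20 kb flanks, triangles regions within 1 kb of a start, circles distal regions, and colors the list (grey shared, blue WT only, red Pbrm1 cKO only). Notch2 holds 13 of the regions, and Notch3, Notch4, Dll1 and Heyl have none at their RefSeq start.

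The 10 windows spanned 744.383 kb and held 7.52 regions per 100 kb, and the median of 20508 single protein-coding genes was 4.58, with quartiles of 1.78 and 8.20 that enclose the pooled value. The density ran from 3.49 per 100 kb at Notch3 and 4.56 at Hey1, both under that median, to 11.5 at Hes1. A region lay within 1 kb of the RefSeq start in 6 of the 10 genes (Notch1, Notch2, Jag1, Dll4, Hes1 and Hey1), and in 58.5% of the protein-coding genes. These are descriptions of the merged lists with no test.

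No region of the Notch loci changed rank between genotypes past the threshold. The ranks were compared on the scale log2(66679 / rank), called the rank score, on which a difference of 1 is a 2-fold change in rank number. The limma fit ran over all 66679 regions with Benjamini-Hochberg adjustment over all of them, and 0 of the 56 had an adjusted p under 0.05, against 0.069% of all regions. The smallest adjusted p among the 56 was 0.202. Without adjustment, 4 of the 56 (7.14%) had a p under 0.05, where 15.9% of all regions did. The ranks of the groups did not overlap at 8 of the 56 (14.3%), 4 higher and 4 lower in Pbrm1 cKO, where 21.4% of all regions did not overlap in either direction. The scores were higher in Pbrm1 cKO at 28 regions and lower at 28, with a median difference of 0.0075, against 0.0010 over all regions. Ranking by fold enrichment in place of the p gave 21 higher and 35 lower, with a median of −0.09 on the log2 scale. Of these, 0 were called, against 0.0105% of all regions. The split of all regions under this ranking was not taken, so this tilt has no background beside it.

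**Figure D2:**
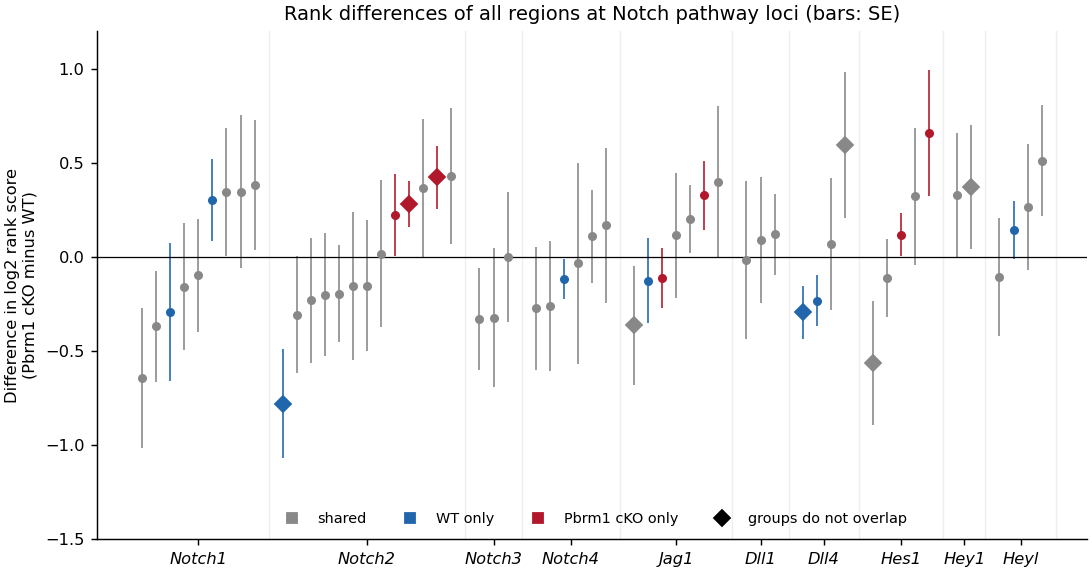
Difference in log2 rank score, Pbrm1 cKO minus WT, for each of the 56 regions, grouped by gene on the x axis; bars are standard errors of the limma fit over 3 libraries per genotype, and colors give the list as in the map. Diamonds mark the 8 regions at which the ranks of the 2 groups do not overlap, and 0 of the 56 differences passed an adjusted p of 0.05.

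The receptors were taken first. Their 4 loci held 31 of the 56 regions, of which 12 had a higher and 19 a lower score in Pbrm1 cKO, with a median difference of −0.12.

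Notch1, a receptor used across many tissues, had 9 regions, 7 shared and 2 WT only. The region over its RefSeq start (chr2:26503366-26504180) ranked 25338, 30671 and 22996 in WT and 25934, 24421 and 12759 in Pbrm1 cKO. Pbrm1 cKO library 3 stood highest and the other 5 libraries overlapped. The difference was 0.38 ± 0.35 (SE, n = 3 each; limma adjusted p = 0.638). The second start (chr2:26516336-26516820, centred at −12.76 kb), at which a longer protein-coding transcript of GENCODE begins, was listed in WT alone. Its ranks nevertheless overlapped, at 28882, 35567 and 19609 in WT and 55281, 21558 and 31059 in Pbrm1 cKO, for a difference of −0.29 ± 0.37 (limma adjusted p = 0.753). The single low rank of Pbrm1 cKO library 1 set that direction, since without this library the difference was 0.07. The central 300 bases of the region held CGTGGGAA, as did 1.09% of all promoter regions.

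The strongest distal region of Notch1 lay in the intron between these starts (chr2:26507447-26507845). It ranked 11547, 7706 and 9869 in WT and 9528, 21566 and 16370 in Pbrm1 cKO. Libraries 2 and 3 of Pbrm1 cKO lay below all WT libraries and library 1 among them. The difference was −0.65 ± 0.37 (limma adjusted p = 0.413), with the smallest p of this locus. The start of Sec16a, a neighbor in this window (chr2:26444915-26446448), ranked 5512, 3852 and 4975 in WT and 3152, 3795 and 4307 in Pbrm1 cKO. The groups overlapped there, with a difference of 0.35 ± 0.41 (limma adjusted p = 0.733).

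Notch2 had the most regions of any member, 13, and 3 of the 4 with an unadjusted p under 0.05. Its start (chr3:98013091-98014279) was among the strongest member regions, at ranks 4932, 9793 and 4712 in WT and 6678, 6512 and 7227 in Pbrm1 cKO. The Pbrm1 cKO ranks fell within the WT range, and the difference was −0.16 ± 0.39 (limma adjusted p = 0.893).

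The groups did not overlap at 3 of the 13 Notch2 regions, all distal, where 21.4% of all regions did not overlap. Of the 3, 2 were higher and 1 was lower in Pbrm1 cKO. The intergenic region centred at −14.88 kb (chr3:97998337-97998971), listed in WT alone, ranked 27323, 22782 and 36399 in WT and 62201, 45267 and 40882 in Pbrm1 cKO. Every WT library ranked it above every Pbrm1 cKO library. Its score was 1.24 ± 0.34 in WT and 0.46 ± 0.32 in Pbrm1 cKO (SD, n = 3 each), a difference of −0.78 ± 0.29 (SE; limma adjusted p = 0.202), which did not pass the threshold. The summits held 31, 31 and 14 tags in WT and 16, 19 and 22 in Pbrm1 cKO, so the shallow WT library 3 had the fewest tags while ranking above all Pbrm1 cKO libraries. Leaving out Pbrm1 cKO library 1 reduced the difference to −0.60 (limma adjusted p = 0.516).

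Inside the gene, the intronic region at 53.95 kb (chr3:98067280-98067705), listed in Pbrm1 cKO alone, showed the opposite order. It ranked 65089, 64592 and 49366 in WT and 47573, 42276 and 42842 in Pbrm1 cKO, with 13, 13 and 12 tags against 29, 26 and 26. All Pbrm1 cKO libraries were above all WT libraries, though WT library 3 lay close to Pbrm1 cKO library 1. The difference was 0.42 ± 0.17 (SE; limma adjusted p = 0.231), and it passed the threshold (adjusted p = 0.0472) only on normal scores with WT library 3 left out, an alternative added after seeing the data. Another region, in the last part of the gene body and overlapping an exon (chr3:98147426-98148083), was also listed in Pbrm1 cKO alone. It had no entry in WT libraries 1 and 3 and ranked 58987 in WT library 2, against 55307, 56159 and 47149 in Pbrm1 cKO, for a difference of 0.28 ± 0.12 (limma adjusted p = 0.275). Its listed summits held 12 to 17 tags. The best-ranked distal region of Notch2, a shared intronic region at 43.39 kb (chr3:98056414-98057444), ranked 11147, 7675 and 13720 in WT and 9257, 7003 and 7419 in Pbrm1 cKO, with a difference of 0.43 ± 0.36 (limma adjusted p = 0.607).

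At Notch3, the receptor best known from mural and smooth muscle cells, no region of the merged lists lay within 1 kb of the RefSeq start. The relaxed lists did have entries there in all 6 libraries. Their best entries would have ranked 61917, 62313 and 42251 among the regions in WT and 62561, 65672 and 64649 in Pbrm1 cKO, with 13 to 16 tags in WT and 9 to 15 in Pbrm1 cKO. The accessible regions of the locus lay further along. A shared region at 23.63 kb overlapping an exon (chr17:32143040-32143499) ranked 13490, 26229 and 19949 in WT and 17708, 24453 and 16386 in Pbrm1 cKO. The groups overlapped almost fully, with a difference of −0.0025 ± 0.35 (limma adjusted p = 0.998). A shared region at 49.07 kb, past the end of the gene (chr17:32117261-32118400), was the best-ranked of the locus at 13405, 6379 and 12868 in WT and 11043, 13170 and 14842 in Pbrm1 cKO, for a difference of −0.32 ± 0.37 (limma adjusted p = 0.722). The remaining region belonged to the start of Pdxk-ps and touched only the edge of the window.

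Notch4 also lacked a region at its RefSeq start, where the best relaxed entries would have ranked 50796 to 65349 in WT and 52860 to 63259 in Pbrm1 cKO. Yet the locus contained the best-ranked of the 56 regions (chr17:34586686-34587744). It lay 22.93 kb past the start, near the end of the gene, where GENCODE M21 places the starts of short noncoding Notch4 transcripts. It ranked 2938, 3728 and 1180 in WT and 3271, 2602 and 1628 in Pbrm1 cKO, with 82 to 135 tags over its summit. The groups overlapped, and the difference was −0.03 ± 0.54 (limma adjusted p = 0.986). Its sequence above holds CGTGGGAA and CACGTG, and CACGTG occurred in the central 300 bases of 7.77% of all promoter regions. The 2 shared regions upstream of the start, at −8.52 kb (chr17:34555586-34555951) and −2.22 kb (chr17:34561878-34562247), ranked from 19504 to 38811 and from 30021 to 56610 over the 6 libraries, with differences of −0.27 ± 0.33 and 0.11 ± 0.25. The other 3 regions lay at the starts of Pbx2, Rnf5 and Agpat1.

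**Figure D3:**
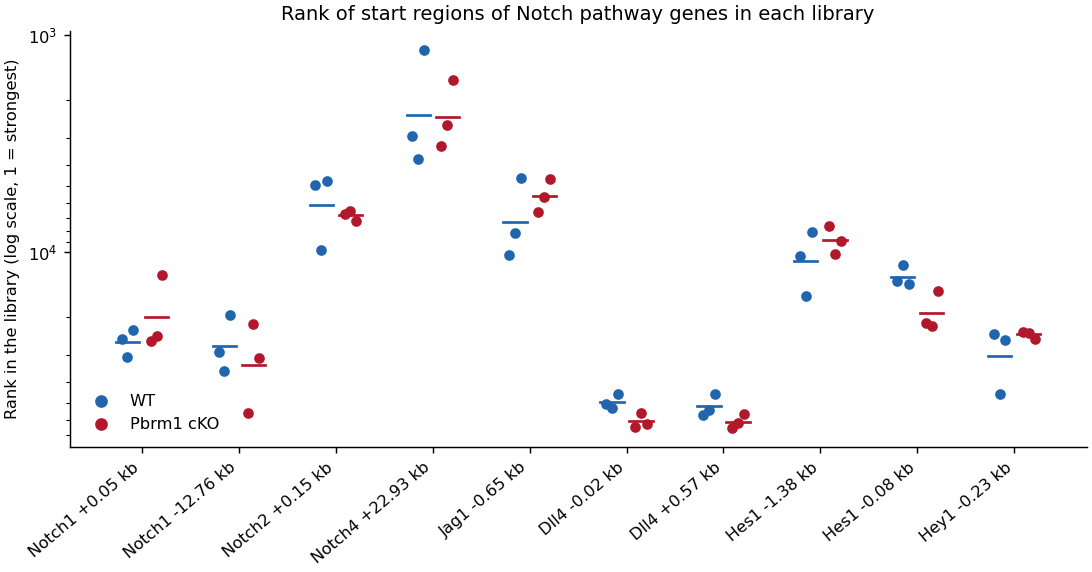
Rank of the 10 regions at starts of Notch genes in each library, on a log axis with rank 1 at the top; blue points are the 3 WT and red points the 3 Pbrm1 cKO libraries, bars the geometric means, and labels the distance of the region from the RefSeq start. Notch4 at 22.93 kb, Notch2 and Jag1 rank highest and both Dll4 regions lowest, and the groups separate at the Dll4 region over the start and at the Hes1 region at −0.08 kb.

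The ligand loci held 14 regions, 8 with a higher and 6 with a lower score in Pbrm1 cKO and a median difference of 0.08.

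Jag1, a ligand of smooth muscle and of many stromal cells, had an open start. The region (chr2:137116675-137117672) began just upstream of the transcripts and ranked 10406, 8229 and 4577 in WT and 6575, 5626 and 4635 in Pbrm1 cKO. The Pbrm1 cKO ranks lay inside the WT range, and the difference was 0.40 ± 0.40 (limma adjusted p = 0.681). Ranked by fold, it was −0.14. A shared region in the intron at 1.89 kb (chr2:137114187-137115074) went the other way without overlap. It ranked 19955, 20347 and 17324 in WT and 24565, 20802 and 29304 in Pbrm1 cKO, with a difference of −0.36 ± 0.32 (limma adjusted p = 0.620). The gap between the groups was small, from 20347 to 20802. Of the 5 regions near or past the end of the gene, the best-ranked (chr2:137067441-137068268, in an exon of Slx4ip) stood between 10778 and 13732 in all libraries, with a difference of 0.11 ± 0.33. The smallest p of the locus was at a Pbrm1 cKO-only intronic region at 32.63 kb (chr2:137083755-137084026). It ranked 46443, 60003 and 60890 in WT and 39190, 48646 and 45108 in Pbrm1 cKO, for a difference of 0.33 ± 0.18 (limma adjusted p = 0.396).

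Dll1 had 3 shared regions and none at its start. The best relaxed entries within 1 kb of that start would have ranked 32417, 47684 and 27780 in WT and 63282, 58775 and 57435 in Pbrm1 cKO, with 33, 23 and 21 tags against 16, 20 and 17. Every WT library stood above every Pbrm1 cKO library at this site. This site was singled out after its values were seen, it was in neither conservative list, and it had no test. Just beyond the 1 kb limit, at −1.20 kb (chr17:15378005-15378263), a shared region in an exon of A930024N18Rik ranked 46363, 50347 and 50126 in WT and 49986, 33121 and 55086 in Pbrm1 cKO, with a difference of 0.12 ± 0.22 (limma adjusted p = 0.840). The groups overlapped there. The region past the end of the gene at 11.09 kb (chr17:15365591-15366093) ranked from 13832 to 24116 with a difference of 0.09 ± 0.34, and the strongest of the window was the start of Fam120b at −19.34 kb.

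Dll4, best known as a ligand of endothelial cells, had a weakly open start that was listed in WT alone. The region over the start (chr2:119325537-119325999), shared with the start of Gm14207, ranked 50523, 52372 and 45321 in WT and 64508, 55240 and 62219 in Pbrm1 cKO. All WT libraries were above all Pbrm1 cKO libraries, with 23, 18 and 13 tags against 12, 18 and 12. The score was 0.44 ± 0.11 in WT and 0.14 ± 0.12 in Pbrm1 cKO (SD, n = 3 each), a difference of −0.30 ± 0.14 (SE; limma adjusted p = 0.308). A second region at 0.57 kb (chr2:119326234-119326482), also listed in WT alone, ranked 56758, 53678 and 45286 in WT and 65100, 61409 and 56041 in Pbrm1 cKO. Here the groups overlapped slightly and the difference was −0.23 ± 0.14 (limma adjusted p = 0.418). Both regions ranked between 45286 and 65100 in every library.

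Beyond the gene, a shared region at 12.15 kb (chr2:119337430-119338441) was stronger, at 12842, 9958 and 19541 in WT and 12074, 12320 and 14534 in Pbrm1 cKO, with a difference of 0.07 ± 0.35. The start of the neighboring gene Chac1 (chr2:119350462-119351487) ranked 7875, 13416 and 6065 in WT and 6022, 5447 and 5661 in Pbrm1 cKO. All Pbrm1 cKO libraries were above all WT libraries there, by 0.60 ± 0.39 (limma adjusted p = 0.480), so the Dll4 start and that of its neighbor had opposite orders of the groups, neither past the threshold.

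The target loci held 11 regions, of which 8 had a higher and 3 a lower score in Pbrm1 cKO, with a median difference of 0.27.

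Hes1, the repressor that Notch switches on in most cell types, had 2 shared regions at its start, and the groups ordered differently at each. The one over the RefSeq start (chr16:30065094-30065453) ranked 13649, 11545 and 14048 in WT and 21408, 21991 and 15170 in Pbrm1 cKO. All WT libraries were above all Pbrm1 cKO libraries, with WT library 3 and Pbrm1 cKO library 3 close together. The score was 2.36 ± 0.15 in WT and 1.79 ± 0.30 in Pbrm1 cKO (SD, n = 3 each), a difference of −0.56 ± 0.33 (SE; limma adjusted p = 0.419). The tags over its summit were 84, 80 and 48 in WT and 78, 69 and 81 in Pbrm1 cKO. This is the stretch printed above with 1 GTGGGAA and 2 CACGAG. The second region (chr16:30063491-30064459, −1.38 kb), at which a noncoding Hes1 transcript of GENCODE begins, ranked 10508, 15941 and 8083 in WT and 7603, 10238 and 8900 in Pbrm1 cKO. Those ranks overlapped, with a difference of 0.32 ± 0.36 (limma adjusted p = 0.720), and ranked by fold it was −0.09.

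Past the 3′ end of Hes1, 2 neighboring regions lay within 1 kb of each other. The first, at 5.10 kb (chr16:30070185-30070722), was listed in Pbrm1 cKO alone. It ranked 31464, 58573 and 36254 in WT and 24767, 35177 and 19540 in Pbrm1 cKO, for a difference of 0.66 ± 0.33 (limma adjusted p = 0.348), the largest positive difference among the 56 regions. Pbrm1 cKO library 2 overlapped with WT libraries 1 and 3. The second, at 5.55 kb (chr16:30070778-30071044), was shared, with ranks of 37320 to 54984 in WT and 39464 to 59511 in Pbrm1 cKO and a difference of −0.11 ± 0.21.

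Hey1, a target of Notch in blood vessels and heart, had 2 shared regions. The region over the start (chr3:8666566-8667965), the longest of the start regions at 1400 bp, ranked 23853, 45286 and 25533 in WT and 23454, 23690 and 25168 in Pbrm1 cKO. Only WT library 2 stood apart, low, and the difference was 0.33 ± 0.33 (limma adjusted p = 0.682). The region at 2.23 kb (chr3:8664589-8665024), overlapping an exon, ranked 23218, 23842 and 22585 in WT and 22570, 12783 and 20011 in Pbrm1 cKO. All Pbrm1 cKO libraries were above all WT libraries, the closest pair being 22585 and 22570, and the difference was 0.37 ± 0.33 (limma adjusted p = 0.629).

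Heyl, a relative of Hey1 expressed in smooth muscle, had 4 distal regions and none at its start, where the best relaxed entries would have ranked 34276 to 60262 in WT and 40417 to 62353 in Pbrm1 cKO. The best-ranked region was upstream at −13.35 kb (chr4:123219831-123220574), at 39944, 23584 and 33588 in WT and 19031, 28686 and 33314 in Pbrm1 cKO, with a difference of 0.27 ± 0.34 (limma adjusted p = 0.754). The smallest p of the locus was at a shared region overlapping an exon at 13.70 kb (chr4:123246963-123247551). It ranked 45801, 39036 and 53741 in WT and 32976, 44833 and 22420 in Pbrm1 cKO, for a difference of 0.51 ± 0.29 (limma adjusted p = 0.411). The groups overlapped at all 4 regions.

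The relaxed lists gave a broader view of each locus. Distinct relaxed intervals covered 5.84%, 5.76% and 5.36% of the 10 windows in WT libraries 1, 2 and 3, and 6.11%, 5.87% and 6.12% in the Pbrm1 cKO libraries. All Pbrm1 cKO libraries were above all WT libraries by a small margin, and WT library 3 was lowest. The groups overlapped among the best 100000 entries, where WT library 1 had 4.409% and Pbrm1 cKO library 2 had 4.397%, and with flanks of 50 kb, where they had 4.86% and 4.85%. The number of intervals ran the other way, 181, 174 and 195 in WT and 174, 158 and 167 in Pbrm1 cKO, a difference of means of −17.0 that was −11.2 without WT library 3, −1.67 among intervals at a q of 0.05, and 9.33 when every entry was counted. Over the whole genome WT library 3 also had the most intervals, 241237 against 201228 to 209436, and the least coverage, 42.7 Mb against 46.6 to 50.5 Mb. The part of its depth in these totals was not tested. By locus, coverage was higher in all Pbrm1 cKO than in all WT libraries at Notch2, Dll1 and Heyl, an order that none of these loci kept under every setting tried. At Heyl it was 5.88% ± 0.53 in WT and 7.81% ± 0.42 in Pbrm1 cKO (SD, n = 3 each), at Dll1 6.87% ± 0.10 and 7.45% ± 0.32, and at Notch2 5.48% ± 0.41 and 6.04% ± 0.07. Among the best 100000 entries the order at Dll1 turned, with 5.71% in WT and 4.94% in Pbrm1 cKO and no overlap, and the groups overlapped at Heyl. The groups overlapped at Notch2 with a q of 0.05, and at Notch2 and Dll1 with flanks of 50 kb. With those flanks coverage was lower in all Pbrm1 cKO libraries at Notch4, 4.99% against 5.36%, and at Hey1, 1.902% against 2.075%. It was higher in all Pbrm1 cKO libraries at Hes1, 6.08% against 5.37%, and at Heyl, 5.42% against 4.71%. With a q of 0.05 and the 20 kb flanks it was also higher in all of them at Hes1, 6.40% against 5.26%. Intervals were fewer in all Pbrm1 cKO libraries at Notch4, 14.0 ± 1.0 against 19.3 ± 1.2, an order kept under every setting tried. They were also fewer at Notch2, 37.3 ± 1.5 against 43.7 ± 4.6. At Notch2 the groups overlapped with a q of 0.05, among the best 100000 entries and with all entries counted. With 3 libraries against 3 these values were given without a test. The share of all genes whose loci separate in this way was not taken, so these orders have no background beside them. The part of the unequal lowest −log10 p of the lists in the interval counts was not tested.

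**Figure D4:**
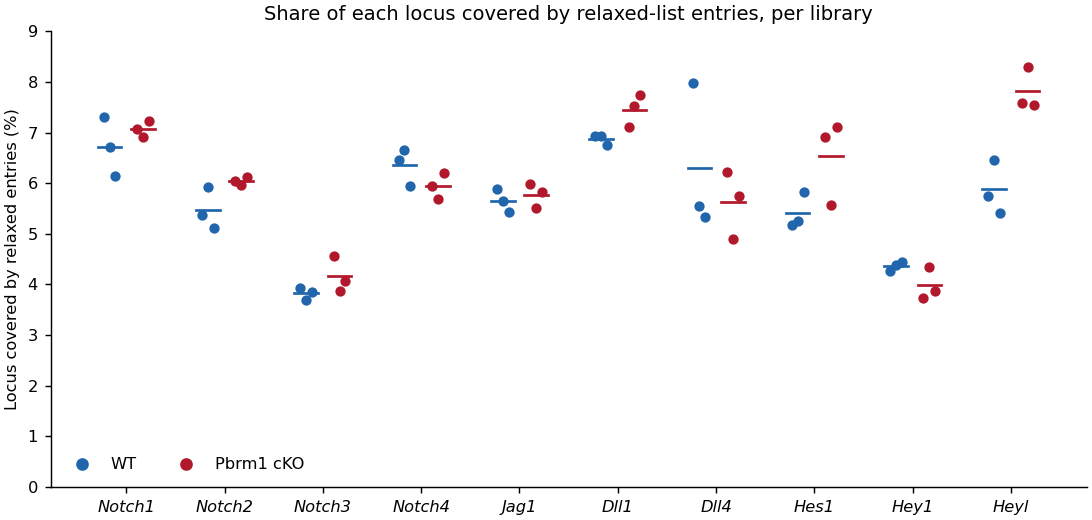
Percent of each locus, gene body plus 20 kb flanks, covered by relaxed-list intervals; each point is 1 library (blue WT, red Pbrm1 cKO) and bars are group means over 3 libraries. Coverage lies between 3.70% at Notch3 and 8.29% at Heyl, and Pbrm1 cKO lies above WT at Notch2, Dll1 and Heyl in these lists, though at none of the 3 under every setting tried.

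The sequence of the regions was also described. The median GC content of the central 300 bases was 65.3% in the 17 promoter and 52.0% in the 39 distal regions, against 61.0% and 48.0% over all regions of these classes, and the median length was 969 bp and 460 bp against 667 bp and 434 bp. GTGGGAA occurred in 3 of the 17 promoter windows (Hes1, Notch1 and Notch4) and in 4 of the 39 distal windows (Heyl, Jag1, Notch1 and Notch3), where 6.22% and 7.59% of all such windows held it. Exact GTGGGAA runs facing each other 15 to 17 bases apart were in 0 of the 56 windows and in 1 of 21555 promoter windows. This is the spacing of paired RBPJ sites, but a pair with other letters on 1 side was not searched for. In the Hes1 stretch above, GTGGGAA is followed at that spacing by TTCACAC, which was not counted. CACGAG was in 1 promoter window (Hes1) and 3 distal windows of the members, and in 8.68% and 5.61% of all. TGANTCA was in 11 of the 39 distal windows, at Dll1, Heyl, Jag1, Notch1 and Notch2, and in 43.2% of all distal windows. It was in 0 of the 17 promoter windows and in 13.2% of all. RefSeq promoter windows, 250 bases before to 50 after a start, were at hand for 7 of the 10 genes. In these, CACGAG was found at Notch3 and TGANTCA at Dll1 and Notch4, and GTGGGAA at none, where 6.38% of all 32851 windows held it. A match is a run of letters and was not shown to be a bound site.

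Genes that act around the receptors and ligands were read at their promoters. Of 41 other pathway genes, 35 had at least 1 promoter region, 57 regions in all. In the limma fit 0 of the 57 were called, against 0.069% of all regions, and the median difference was −0.0017. An unadjusted p under 0.05 was found at 5 of the 57 (2 higher and 3 lower in Pbrm1 cKO), a share below the 15.9% of all regions. All genes for receptor cleavage had a promoter region, 8 of 8, with a median best rank of 4031. Among protein-coding genes, 58.5% had a region within 1 kb of the RefSeq start, with a median best rank of 7946. The listed genes were read at any annotated start, a wider rule, so these values were not taken alike. The other ligands were the least open, since Jag2 and Dlk1 had no promoter region and that of Dll3 had a mean rank of 58153. The 3 smallest p-values were at Psenen, a subunit of γ-secretase, at Dll3 and at Kat2a, a histone acetyltransferase. Psenen had 3 promoter regions, of which the weakest, in the WT list alone, ranked 43453, 38217 and 34557 in WT and 64330, 58590 and 45751 in Pbrm1 cKO, with a difference of −0.53 ± 0.21 (limma adjusted p = 0.226). Its other regions, both shared, had mean ranks of 6086 and 12949, and their scores differed by 0.30 ± 0.43 and 0.15 ± 0.35 the other way. The Dll3 region differed by 0.31 ± 0.13 (limma adjusted p = 0.254) and the weaker Kat2a region, in the Pbrm1 cKO list alone, by −0.41 ± 0.18 (limma adjusted p = 0.278).

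**Figure D5:**
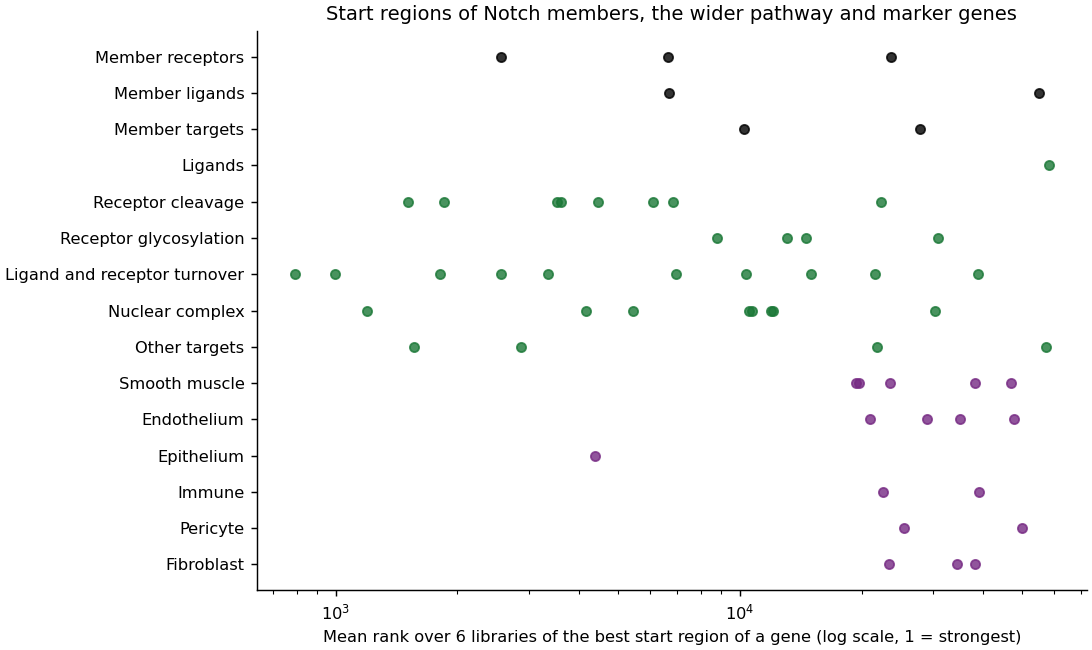
Mean rank over the 6 libraries of the best region within 1 kb of a start, 1 point per gene with such a region, on a log axis with the strongest at the left; black points are the Notch members, green the wider pathway by role, purple marker genes of cell types. Start regions of the members run from a mean rank of 2558 at Notch4 to 55030 at Dll4. The Notch4 point is the region 22.93 kb past its RefSeq start, where no region lay. Those of the 5 smooth muscle markers lie between 19388 and 46897.

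The labelled cell type was checked against markers. All 5 smooth muscle genes (Acta2, Myh11, Cnn1, Tagln and Des) had a promoter region, with best mean ranks of 19388 to 46897. Accessible promoters of the labelled cell type were thus present, all weaker than the median of 7946 for protein-coding gene starts with a region. Of 7 epithelial genes only Foxj1 had one, at a mean rank of 4389, and Epcam, Krt8, Krt18, Cdh1, Pax8 and Ovgp1 had none. Endothelial genes had a promoter region at 4 of 6 (Kdr 21012, Tek 28962, Pecam1 35090 and Cdh5 47707) and none at Emcn and Tie1. Immune genes had one at 2 of 4, pericyte genes at 2 of 3 and fibroblast genes at 3 of 3. Their best mean ranks were 22592 to 39080, 25422 to 49949 and 23334 to 38127, in the range of the smooth muscle genes or close to it. In the limma fit 0 of the 24 marker regions were called. Of the 24, 12 had a higher and 12 a lower score in Pbrm1 cKO, where 50.1% of all regions were higher. Scores were lower at 5 of 7 smooth muscle, 3 of 4 endothelial, 2 of 3 immune and 2 of 2 pericyte regions. The median differences of these lists were −0.18, −0.17, −0.19 and −0.22. Scores were higher at 7 of 7 fibroblast regions, with a median of 0.29, and at the 1 epithelial region, by 0.25. An unadjusted p under 0.05 was found at 2 of the 24, both fibroblast regions, against 15.9% of all regions. In bulk cells, fewer cells of a type and less accessibility per cell cannot be told apart. The part of these uncalled marker differences in the order of the groups at Dll4, Notch2 or Hes1 was not tested.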

How the data were processed

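ATAC-Seq of 3 WT and 3 Pbrm1 cKO libraries was available as lists of peaks. As the study's methods state, the authors used the ENCODE ATAC-Seq pipeline with MACS2 on GRCm38, and the submitters' processing notes name cutadapt and Bowtie2. The authors deposited 1 relaxed list per library, capped at 300000 entries, and 1 conservative list per genotype with pooled values. The deposited columns used were the fold enrichment, a ratio to local background, and the −log10 p and −log10 q of the peak caller. The files held no read counts, so the read-count test of the study was replaced by ranks within each library, in which a change shared by all regions is not visible.

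Conservative lists were merged into 66679 regions. limma 3.58.1 in R 4.3.3 (lmFit, eBayes with trend) compared log2(number of regions / rank) between genotypes without covariates, with p-values adjusted by Benjamini-Hochberg at 0.05 over all regions, and was tested on simulated data. Identical intervals were counted once. Genes came from GENCODE M21, gene starts and sequences from RefSeq GRCm38. Tags were derived from fold and p, and came out whole for 331 of 331 entries over member regions, matching p within the rounding of the files; they cover counting error only.

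Named were, per member, the best-ranked region at its starts, the best-ranked distal region and the distal region with the smallest p. Starts of neighboring genes had their ranks given at Sec16a and Chac1 and were otherwise named without ranks. Members and lists were chosen with earlier results of these data known. Alternatives were another ranked value, normal scores, filters, tied ranks, flanks of 0 and 50 kb, a 3 kb promoter, stricter lists, a replicate block and leaving out each library. Normal scores with averaged ties were added after seeing the data.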

Additional observations from a re-analysis of the deposited data

How the results depend on the processing

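Of the 56 regions, 0 were called under 21 of 22 alternatives. The exception, chosen after seeing the data, used normal scores with averaged ties and left out WT library 3, the shallowest. It called 2 regions of Notch2, at 29.0 kb (adjusted p = 0.0451 by limma) and at 54.0 kb (adjusted p = 0.0472), both higher in Pbrm1 cKO and among 1773 regions called in all. With all 6 libraries the same scores called 1552 of all regions and 0 of the 56. The count at an unadjusted p under 0.05 was 4, and became 2 with entries in all 6 libraries, 2 ranked by fold, 0 in the upper part by mean score, 9 of 89 with flanks of 50 kb, 2 to 7 when 1 library was left out, and 1 to 8 when this was done on the added normal scores. Same-numbered libraries did not deviate together (r = −0.0028, −0.0548 and 0.0093), and with the replicate number as a block the count was 3 and 0 regions were called, and calls over all regions went from 46 to 130. Shared, WT-only and Pbrm1 cKO-only regions numbered 28, 3 and 3 in the stronger part of each list, 20, 3 and 4 without flanks, and 67, 12 and 10 with flanks of 50 kb. The difference in relaxed intervals, −17.0, was −1.67 at a q of 0.05, −6.67 among the best 100000 entries, 9.33 with all entries counted and −11.2 to −21.7 when 1 library was left out. Single differences were recomputed at only 16 of the 56 regions, those at starts or with groups that did not overlap, and the sign changed at 5 of these. At the second start of Notch1 it ran from −0.607 to 0.0724 when 1 library was left out, and the added normal scores gave 0.0635 without Pbrm1 cKO library 1. At the Notch2 start it ran from −0.496 to 0.0316, and the normal scores gave 0.00986 without WT library 1 and 0.0218 without WT library 3. At the late Notch4 region it ran from −0.367 to 0.462, and the normal scores gave 0.0663 and 0.0123 without Pbrm1 cKO libraries 1 and 2 and 0.148 with WT library 3 left out. Ranked by fold, it was −0.143 at the start of Jag1 and −0.0885 at Hes1 (−1.38 kb). Higher coverage in all Pbrm1 cKO libraries was lost at Notch2 with a q of 0.05, at Dll1 (reversed) and Heyl among the best 100000 entries, and at Notch2 and Dll1 with flanks of 50 kb. The cause of these changes was not tested. The tags over the weaker summits, down to 5 in WT library 3, limit what the lists can show.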
